A study of Mus musculus with 12 samples.

Results

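The 10 genes described here, Lyve1, Cd163, Folr2, Timd4, Mrc1, Cd209f, Cd209b, Stab1, Gas6 and F13a1, mark Lyve1-type resident tissue macrophages and were taken from a given list of gene symbols. All 10 were matched to the platform annotation, each through 1 probe set, among 19938 genes tested. Expression was measured on 12 microarrays of cells sorted from the skin of untreated wild-type C57BL/6 mice, 3 arrays for each of 4 groups: MHC-II-positive melanophages, MHC-II-negative melanophages, MHC-II-positive macrophages and MHC-II-negative macrophages. Melanophages are macrophages loaded with melanin. By the labels the cells of every group were gated as CD11b+ and CD64+ and as CD24-, CCR2- and Ly6C-. High side scatter was the gate of the melanophages. For the macrophages the sample titles and the phenotype field disagree on side scatter. Whether separate animals or pools stand behind the 3 arrays of a group is not given, so the p-values reflect array-to-array spread alone, which may be technical. The codes in the sample titles form 3 runs of consecutive numbers with 1 array of each group in a run, and the labels do not say what a run stands for.

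Resident tissue macrophages of connective tissue include a long-lived, perivascular kind that carries LYVE1 and little MHC class II, and a kind with more MHC class II and little LYVE1. The first kind is known for endocytic and scavenger receptors: LYVE1 binds hyaluronan, CD163 takes up haemoglobin bound to haptoglobin, MRC1 (CD206) binds mannosylated glycoproteins and collagen, and STAB1 is a multi-ligand scavenger receptor. FOLR2 is a folate receptor, TIMD4 binds phosphatidylserine on dying cells, and the CD209 proteins are C-type lectins related to human DC-SIGN. GAS6, a bridging ligand of the TAM receptor kinases, and F13A1, the transglutaminase subunit of coagulation factor XIII, are products that such macrophages make.

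Promoter sequences of 3 members are shown so that they can be read beside the values: Timd4, which was low in 1 group, and Folr2 and Cd209f, whose group means ran in the same order as those of Lyve1, an order that F13a1 and Mrc1, not printed, shared. RefSeq promoters (build GRCm38.p6, 250 bases before to 50 after a gene start) were matched for 9 of the 10 members, in 11 entries. They were searched on both strands for TGCTGA, the half-site of MAF factors, and for GAGGAA, the core of many PU.1 sites. GAGGAA is in none of the 3 sequences printed. Of 32851 promoters, 19.5% held TGCTGA and 28.3% held GAGGAA. Of the members, 3 held TGCTGA (Timd4, Folr2 and Stab1) and 3 held GAGGAA (Mrc1, F13a1 and Stab1). A match is a description of the letters and no binding site. Below, Timd4 (chr11:46810549-46810848, plus strand), Folr2 (its entry at chr7:101857141-101857440, minus strand) and Cd209f (chr8:4105715-4106014, minus strand) are printed 5′ to 3′, with TGCTGA or its reverse complement in capitals.
Timd4: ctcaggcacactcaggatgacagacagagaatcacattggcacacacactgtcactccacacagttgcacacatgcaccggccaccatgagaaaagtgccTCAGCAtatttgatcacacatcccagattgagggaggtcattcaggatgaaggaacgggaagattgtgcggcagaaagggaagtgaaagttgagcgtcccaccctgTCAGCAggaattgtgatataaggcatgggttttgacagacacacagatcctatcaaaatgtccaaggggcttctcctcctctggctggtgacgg
Folr2: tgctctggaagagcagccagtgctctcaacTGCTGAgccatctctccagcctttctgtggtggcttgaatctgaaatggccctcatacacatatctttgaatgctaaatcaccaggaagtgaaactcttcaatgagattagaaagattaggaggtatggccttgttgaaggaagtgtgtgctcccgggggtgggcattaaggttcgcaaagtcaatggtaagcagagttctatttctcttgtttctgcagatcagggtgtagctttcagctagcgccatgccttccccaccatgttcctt
Cd209f: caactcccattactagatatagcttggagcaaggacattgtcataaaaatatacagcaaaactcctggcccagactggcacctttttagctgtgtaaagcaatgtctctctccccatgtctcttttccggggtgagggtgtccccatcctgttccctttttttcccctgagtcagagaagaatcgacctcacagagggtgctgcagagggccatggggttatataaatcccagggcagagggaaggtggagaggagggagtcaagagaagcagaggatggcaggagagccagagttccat
In Timd4 the matches began 150 and 44 bases before the gene start, and in the printed Folr2 entry the match began 220 bases before it. The other Folr2 entry, not printed, held a match that began 19 bases before its gene start. Cd209f held neither motif in this window.

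The arrays carried the macrophage genes that the gate implies. Over 10 macrophage genes (among them Adgre1, Csf1r, Cd68, Lyz2 and the C1q chains) the mean log2 value of an array lay between 8.97 and 9.41. Over 4 MHC-II genes (H2-Aa, H2-Ab1, H2-Eb1 and Cd74) the mean of an array lay at 10.73 to 11.13 in MHC-II-positive melanophages, 6.73 to 7.47 in MHC-II-negative melanophages, 11.20 to 11.35 in MHC-II-positive macrophages and 8.06 to 8.44 in MHC-II-negative macrophages. Within neither gate did arrays of melanophages and macrophages overlap in this mean, which was lower in melanophages. Ccr2 averaged 6.75 ± 0.39 in MHC-II-positive melanophages, 3.40 ± 0.31 in MHC-II-negative melanophages, 7.11 ± 0.53 in MHC-II-positive macrophages and 3.99 ± 0.27 in MHC-II-negative macrophages (SD, n = 3 each), so its mRNA was well above the array medians in both MHC-II-positive groups of a gate labelled CCR2-. The part of this in the MHC-II differences below was not tested. All 6 melanocyte genes had group means of at most 3.41, where array medians over all probe sets lay between 2.97 and 3.08. Of 7 dendritic cell genes, 4 (Flt3, Zbtb46, Xcr1 and Epcam) had group means of at most 3.64, and the mean over the list per array lay at 3.5 to 3.82 in MHC-II-positive melanophages, 3.12 to 3.29 in MHC-II-negative melanophages, 4.07 to 4.31 in MHC-II-positive macrophages and 3.14 to 3.32 in MHC-II-negative macrophages. Cd207 and Itgax passed as lower in melanophages averaged over MHC-II class (-1.16 ± 0.15, adjusted p = 0.0262, and -0.80 ± 0.11, adjusted p = 0.0404), and with Ccr7 they passed as higher in MHC-II-positive cells. Cd207 averaged 3.17, 2.81, 5.17 and 3.13 in the 4 groups in that order, and Itgax 4.03, 3.41, 5.47 and 3.56, so both were highest in MHC-II-positive macrophages. Of 5 mast cell genes, Kit did not exceed 2.86, Mcpt4 averaged 6.04, 6.33, 5.61 and 6.78, and Cpa3 4.74, 5.21, 3.67 and 5.54 in the same order. All 5 mast cell genes lay lower in MHC-II-positive cells averaged over cell kind (59.8% of all genes), the sign of the Lyve1 difference. Of them 0 passed by limma (0.762% of all genes), with an unadjusted p under 0.05 for Cpa3 alone (-1.17 ± 0.52, adjusted p = 0.531). What part the dendritic and mast cell genes have in the members' differences was not tested. The arrays least like their group mates were replicate 1 of the MHC-II-negative macrophages and replicate 3 of the MHC-II-positive macrophages, called the far macrophage arrays below (SD of the difference over genes 0.406 and 0.356, against 0.241 to 0.311 for the other arrays).

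Lyve1, the hyaluronan receptor that names these macrophages, was lower in melanophages averaged over MHC-II class, the only pass of a member in the 7 comparisons as fitted here. Its log2 values were 4.64, 6.13 and 6.03 in MHC-II-positive melanophages, 6.21, 7.14 and 6.95 in MHC-II-negative melanophages, 6.97, 8.49 and 8.41 in MHC-II-positive macrophages, and 9.57, 10.43 and 10.34 in MHC-II-negative macrophages. Both melanophage groups were low and MHC-II-negative macrophages were high, and the only neighbouring groups whose arrays overlapped were MHC-II-negative melanophages and MHC-II-positive macrophages. The lowest array of each group was replicate 1, of the run with the lowest title codes. Averaged over MHC-II class, Lyve1 was 7.23-fold lower in melanophages (log2 difference -2.85 ± 0.35 SE, limma adjusted p = 0.021). It was 10.2-fold lower within the MHC-II-negative gate (-3.35 ± 0.49, adjusted p = 0.109) and 5.13-fold lower within the MHC-II-positive gate (-2.36 ± 0.49, adjusted p = 0.26), with no overlap of arrays in either, but neither passed the threshold of 0.05.

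The MHC-II-positive minus MHC-II-negative difference of Lyve1 was -1.66 ± 0.35 averaged over cell kind (adjusted p = 0.0695), -1.16 ± 0.49 within melanophages (adjusted p = 0.841) and -2.16 ± 0.49 within macrophages (adjusted p = 0.144). Arrays did not overlap within either cell kind, and none of these differences passed. The MHC-II difference of Lyve1 in melanophages minus that in macrophages was 0.99 ± 0.70 (95% confidence interval -0.55 to 2.54, adjusted p = 0.9996), so a different response of the cell kinds was not shown. The Lyve1 difference was the lowest of 19938 genes in 4 of the 7 comparisons made: for melanophages against macrophages, on average and within the MHC-II-negative gate, and between the MHC-II gates averaged over cell kind and within macrophages.

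Lyve1 is also a gene of lymphatic endothelium. Of 6 measured lymphatic endothelial genes, 5 (Prox1, Flt4, Mmrn1, Reln and Tie1) had group means between 2.13 and 3.02, near or below the array medians, in every group. The sixth, Pdpn, averaged 6.82 in MHC-II-positive melanophages, 6.06 in MHC-II-negative melanophages, 7.38 in MHC-II-positive macrophages and 6.30 in MHC-II-negative macrophages, an order unlike that of Lyve1. The mean over the list per array lay at 3.27 to 3.35, 3.11 to 3.31, 3.26 to 3.56 and 3.22 to 3.25 in the same 4 groups. In sorted samples, fewer cells carrying a transcript and less transcript per cell cannot be told apart.

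Whether Lyve1 passed for melanophages against macrophages depended on which arrays and probe sets were in the fit. Over 23 alternatives the difference lay between -3.10 and -2.62 and passed in 16. These passes include a fit with the runs of title codes as a block, chosen after seeing the data (limma adjusted p = 5.01e-05). The difference missed the threshold when replicate 1 (adjusted p = 0.0543), 2 (0.0519) or 3 (0.0545) of the MHC-II-negative melanophages was left out. It also missed without MHC-II-negative macrophages replicate 2 (0.0815) or 3 (0.0572), without MHC-II-positive macrophages replicate 2 (0.0556) and in the fit of every probe set of the table (0.055). Without both far macrophage arrays it was -2.88 (adjusted p = 0.0309).

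**Figure D1:**
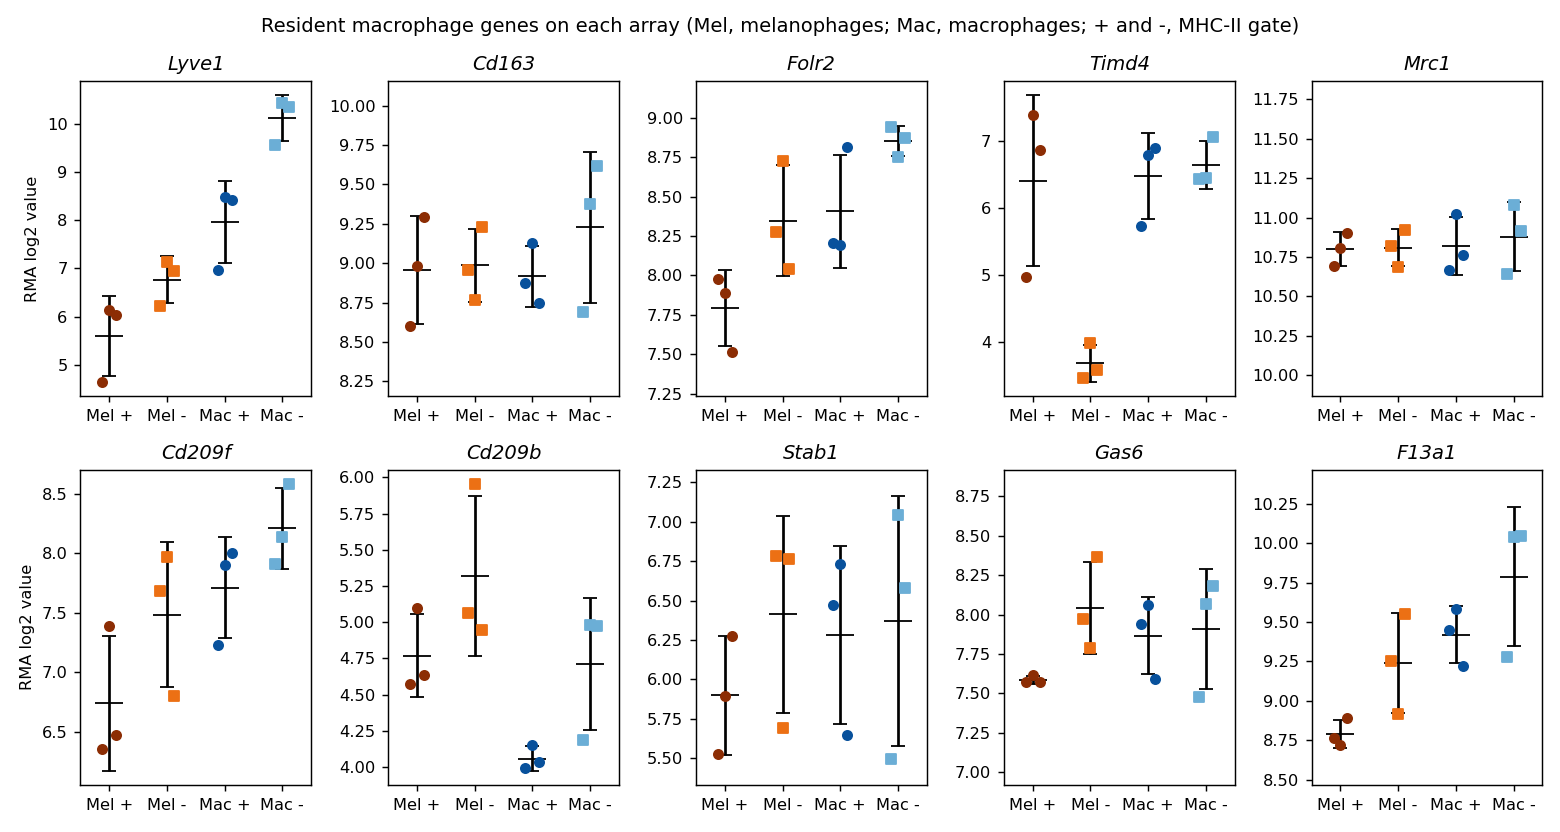
RMA log2 values (y axis, a separate range for each gene spanning at least 2 units) of the 10 genes on the 12 arrays; points are arrays, horizontal lines are group means and bars are SD (n = 3), with melanophages (Mel) and macrophages (Mac) in the MHC-II-positive (+) and MHC-II-negative (-) gates. The Lyve1 means are 5.60, 6.77, 7.96 and 10.12 in the order drawn, Timd4 is low in 1 group only at 3.67, and Mrc1 stays between 10.80 and 10.88.

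Timd4, the phosphatidylserine receptor, was low in a single group. Its log2 values were 4.96, 7.38 and 6.87 in MHC-II-positive melanophages, 3.46, 3.98 and 3.57 in MHC-II-negative melanophages, 5.73, 6.79 and 6.89 in MHC-II-positive macrophages, and 6.43, 6.44 and 7.05 in MHC-II-negative macrophages. All 3 arrays of MHC-II-negative melanophages lay below the other 9 arrays, and the other 3 groups overlapped. Within the MHC-II-negative gate melanophages minus macrophages was -2.97 ± 0.54 (7.83-fold, adjusted p = 0.161), and within melanophages MHC-II-positive minus MHC-II-negative cells was 2.73 ± 0.54 (6.63-fold, adjusted p = 0.127). Neither passed. Because the mean of MHC-II-negative melanophages, 3.67, lay near the array medians, both differences may be lower bounds.

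Elsewhere Timd4 showed no such gap. Within the MHC-II-positive gate melanophages minus macrophages was -0.07 (95% confidence interval -1.26 to 1.12), and within macrophages the MHC-II difference was -0.17 (-1.36 to 1.02). The interaction of Timd4 was 2.90 ± 0.76, the highest of 19938 genes, with an unadjusted p of 0.00315 by limma and an adjusted p of 0.9996, since 0 genes passed for the interaction (0% of 19938; 820 genes, 4.11%, had an unadjusted p under 0.05). The difference within melanophages was 3.45 (adjusted p = 0.00502) without MHC-II-positive melanophages replicate 1, whose Timd4 value was 4.96, and that averaged over cell kind was 1.64 (adjusted p = 0.015) against 1.28 ± 0.38 (adjusted p = 0.255) with it. Without the same array the difference between the cell kinds within the MHC-II-negative gate, which does not hold that array, passed for Timd4 (-2.97, adjusted p = 0.0289) and for Lyve1 (-3.35, adjusted p = 0.0485), where 8 of all genes passed, against 1 with it.

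**Figure D2:**
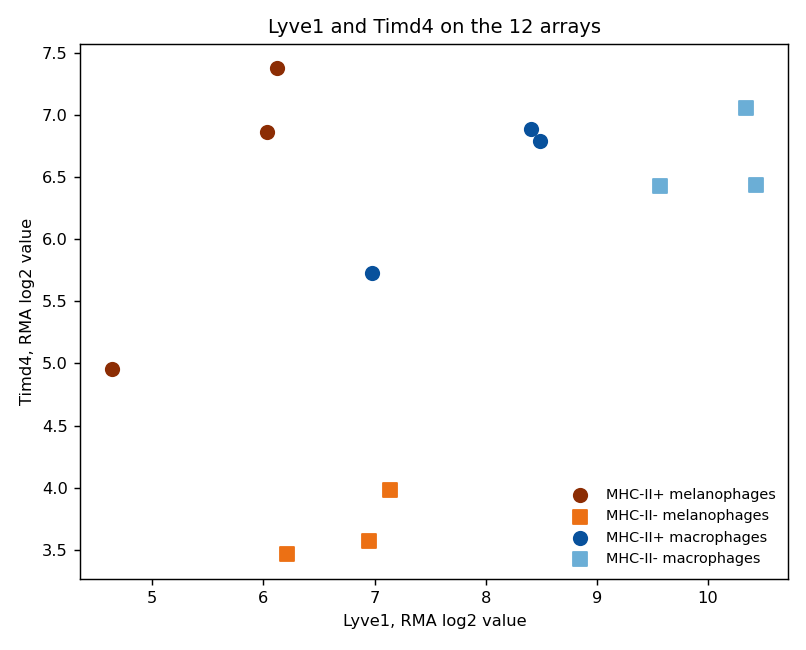
Log2 value of Timd4 (y axis) against that of Lyve1 (x axis) on the 12 arrays, coloured by group, with circles for MHC-II-positive and squares for MHC-II-negative cells. MHC-II-negative melanophages sit apart at a Timd4 of 3.46 to 3.98, while the other groups spread along Lyve1 at a Timd4 of 4.96 to 7.38.

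The folate receptor gene Folr2 followed the order of Lyve1 with smaller steps. Its log2 values were 7.98, 7.89 and 7.52 in MHC-II-positive melanophages, 8.27, 8.73 and 8.04 in MHC-II-negative melanophages, 8.21, 8.19 and 8.82 in MHC-II-positive macrophages, and 8.94, 8.75 and 8.87 in MHC-II-negative macrophages. Melanophages lay below macrophages without overlap within each gate, by -0.61 ± 0.21 in the MHC-II-positive gate (adjusted p = 0.659) and by -0.51 ± 0.21 in the MHC-II-negative gate (adjusted p = 0.838). Averaged over MHC-II class the difference was -0.56 ± 0.15 (adjusted p = 0.302), and between the MHC-II gates it was -0.50 ± 0.15 averaged over cell kind (adjusted p = 0.245). None passed.

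The CD209 lectin genes among the members, Cd209f and Cd209b, had differences of opposite sign between the cell kinds, neither of which passed. Cd209a, Cd209d and Cd209g, of the further Lyve1-type genes below, had lower group means in melanophages within both gates, as Cd209f did, and none passed. Cd209g averaged 4.55 against 5.39 in the MHC-II-positive gate and 5.24 against 5.82 in the MHC-II-negative gate. Cd209f had log2 values of 6.36, 7.39 and 6.47 in MHC-II-positive melanophages, 7.68, 7.97 and 6.80 in MHC-II-negative melanophages, 7.23, 7.90 and 8.01 in MHC-II-positive macrophages, and 7.91, 8.14 and 8.58 in MHC-II-negative macrophages. Cd209b had 4.57, 5.10 and 4.64, then 5.06, 5.95 and 4.95, then 3.99, 4.15 and 4.03, and last 4.18, 4.98 and 4.97 in the same 4 groups. Melanophages minus macrophages was -0.85 ± 0.25 for Cd209f (adjusted p = 0.399) and 0.66 ± 0.20 for Cd209b (adjusted p = 0.41), and arrays did not overlap for Cd209b in the MHC-II-positive gate. In the MHC-II-positive gate the differences were -0.97 ± 0.36 for Cd209f and 0.71 ± 0.28 for Cd209b, and in the MHC-II-negative gate they were -0.73 ± 0.36 for Cd209f and 0.61 ± 0.28 for Cd209b. For MHC-II both lay lower in the positive one, with differences of -0.62 ± 0.25 for Cd209f (adjusted p = 0.474) and -0.60 ± 0.20 for Cd209b (adjusted p = 0.336), again without passing. The genes are paralogues, and how far their probe sets share target sequence was not tested.

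F13a1, the factor XIII subunit, had log2 values of 8.76, 8.72 and 8.89 in MHC-II-positive melanophages, 9.25, 8.92 and 9.55 in MHC-II-negative melanophages, 9.45, 9.58 and 9.22 in MHC-II-positive macrophages, and 9.28, 10.04 and 10.05 in MHC-II-negative macrophages. MHC-II-positive melanophages lay below all other 9 arrays. Averaged over MHC-II class the difference between the cell kinds was -0.59 ± 0.15 (adjusted p = 0.289), and it was -0.76 and passed without both far macrophage arrays (adjusted p = 0.0379), a fit in which 117 of all genes passed, against 24 with them. It was -0.63 ± 0.21 in the MHC-II-positive gate and -0.55 ± 0.21 in the MHC-II-negative gate.

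Gas6 held a narrow range, with log2 values of 7.57, 7.62 and 7.57 in MHC-II-positive melanophages, 7.97, 7.79 and 8.36 in MHC-II-negative melanophages, 7.94, 8.06 and 7.59 in MHC-II-positive macrophages, and 7.48, 8.07 and 8.18 in MHC-II-negative macrophages. Within melanophages the MHC-II-positive arrays lay below the MHC-II-negative ones (-0.46 ± 0.20, adjusted p = 0.866). Averaged over MHC-II class the cell kinds differed by -0.07 (95% confidence interval -0.39 to 0.24). Fibroblasts also make Gas6. Of 7 fibroblast genes, 5 had group means of at most 3.40, Col1a1 reached 3.73, and Dcn averaged 5.36, 5.26, 5.37 and 6.31 in the 4 groups in that order, whose part in the Gas6 values was not tested.

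The endocytic receptors Mrc1, Cd163 and Stab1 passed in none of the 7 comparisons by limma, and had no unadjusted p under 0.05 in any. Mrc1 lay between 10.64 and 11.08 on every array, with a cell kind difference of -0.04 (95% confidence interval -0.25 to 0.16) and an MHC-II difference of -0.03 (-0.24 to 0.17), so differences beyond 0.25 in either direction lay outside both intervals. Cd163 lay between 8.60 and 9.62, with differences of -0.10 (-0.48 to 0.28) and -0.17 (-0.55 to 0.21). Stab1 varied more, between 5.50 and 7.04, and its differences of -0.17 (-0.86 to 0.51) and -0.30 (-0.99 to 0.39) leave room for changes that these arrays would not detect. The SD within groups was 0.16 for Mrc1, 0.33 for Cd163 and 0.61 for Stab1.

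**Figure D3:**
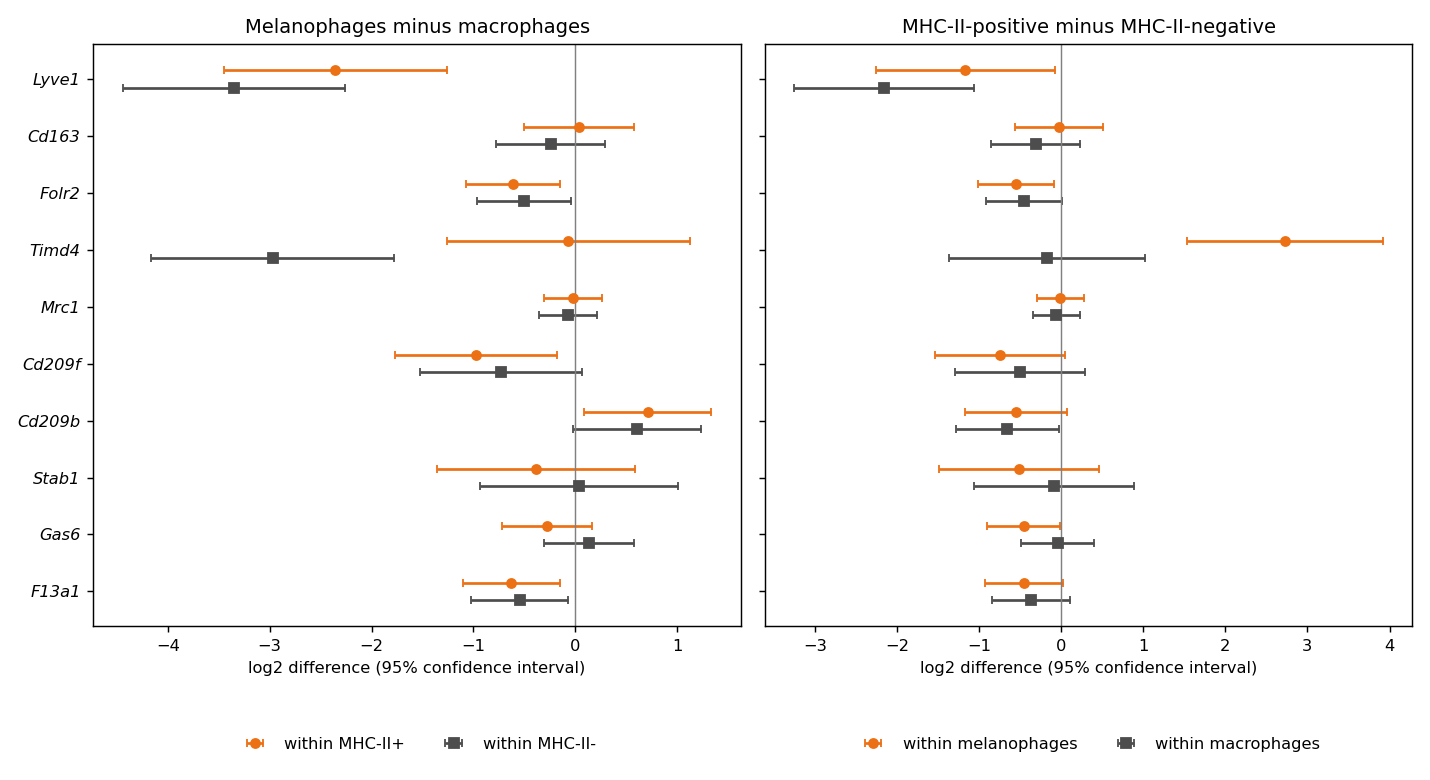
Log2 differences (x axis) of the 10 genes with 95% confidence intervals of the limma fit; the left panel gives melanophages minus macrophages within each MHC-II gate, the right panel MHC-II-positive minus MHC-II-negative cells within each cell kind. Lyve1 lies left of 0 in all 4 comparisons (-3.35 to -1.16), while Timd4 lies far from 0 in the comparisons that involve MHC-II-negative melanophages (-2.97 and 2.73) and near 0 in the others.

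Counted together, 1 of the 10 genes passed in the averaged difference of melanophages from macrophages, and it was lower. Of all genes 0.12% passed and 0.0652% passed as lower. The median difference of the 10 was -0.37, against 0.01 over all genes, and 9 lay below 0, against 45.2% of all genes. An unadjusted p under 0.05 was found for 5 lower and 1 higher, where the shares over all genes were 3.42% and 4.11%. Of the 10, 0 passed within the MHC-II-negative gate (0.00502% of all genes) and 0 within the MHC-II-positive gate (0.015%) by limma, with an unadjusted p under 0.05 for 4 (5.65% of all genes) in the MHC-II-negative gate and 5 (6.3%) in the MHC-II-positive gate. Arrays did not overlap for 3 lower in the MHC-II-negative gate (Lyve1, Folr2 and Timd4; 3.91% of all genes), and for 3 lower (Lyve1, Folr2 and F13a1; 4.91%) and 1 higher (Cd209b; 7.51%) in the MHC-II-positive gate. The 10 genes lie above the median gene in mean value, so the shares over all genes, dim ones included, are no matched comparison.

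Between the MHC-II gates 0 of the 10 passed averaged over cell kind (0.762% of all genes), within melanophages (0.211%) or within macrophages (0.341%) by limma. An unadjusted p under 0.05 was found for 5 lower (4.62% of all genes) and 1 higher (4.6%) averaged over cell kind, for 4 within melanophages (5.7%) and for 2 within macrophages (7.83%). Averaged over cell kind 9 of 10 lay lower in MHC-II-positive cells, against 59.8% of all genes, with a median of -0.36 against -0.02. Timd4 was the exception. Within melanophages arrays did not overlap for 4 lower (Lyve1, Folr2, Gas6 and F13a1; 7.13% of all genes) and 1 higher (Timd4; 5.12%), and within macrophages for 2 lower (Lyve1 and Cd209b; 7.07%). Comparisons within melanophages and within the MHC-II-negative gate share the MHC-II-negative melanophage arrays, as do other pairs of comparisons here, so their values are not independent.

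Across the arrays the genes fell into patterns that their group means alone do not show. After group means were subtracted, Cd163, Mrc1, Stab1, Gas6 and F13a1 deviated together, with Pearson's r of 0.71 to 0.96 over 12 arrays for the 10 pairs, while Folr2 ran against all 5 (-0.81 to -0.56). Both far macrophage arrays were low in those 5 genes: Stab1 deviated by -0.88 and -0.63 from its group means there, and F13a1 by -0.51 and -0.20. Without both arrays the 10 pairs had r of 0.50 to 0.91. Lyve1 deviated most closely with Timd4 (r = 0.86, and 0.87 without both far arrays), and replicate 1 was the lowest array of both genes in every group. With the block of 5 genes Lyve1 had r of 0.615 (Mrc1), 0.54 (Cd163), 0.219 (F13a1), 0.191 (Gas6) and 0.185 (Stab1). These values describe 12 arrays that share their normalization, and no test was made of them.

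**Figure D4:**
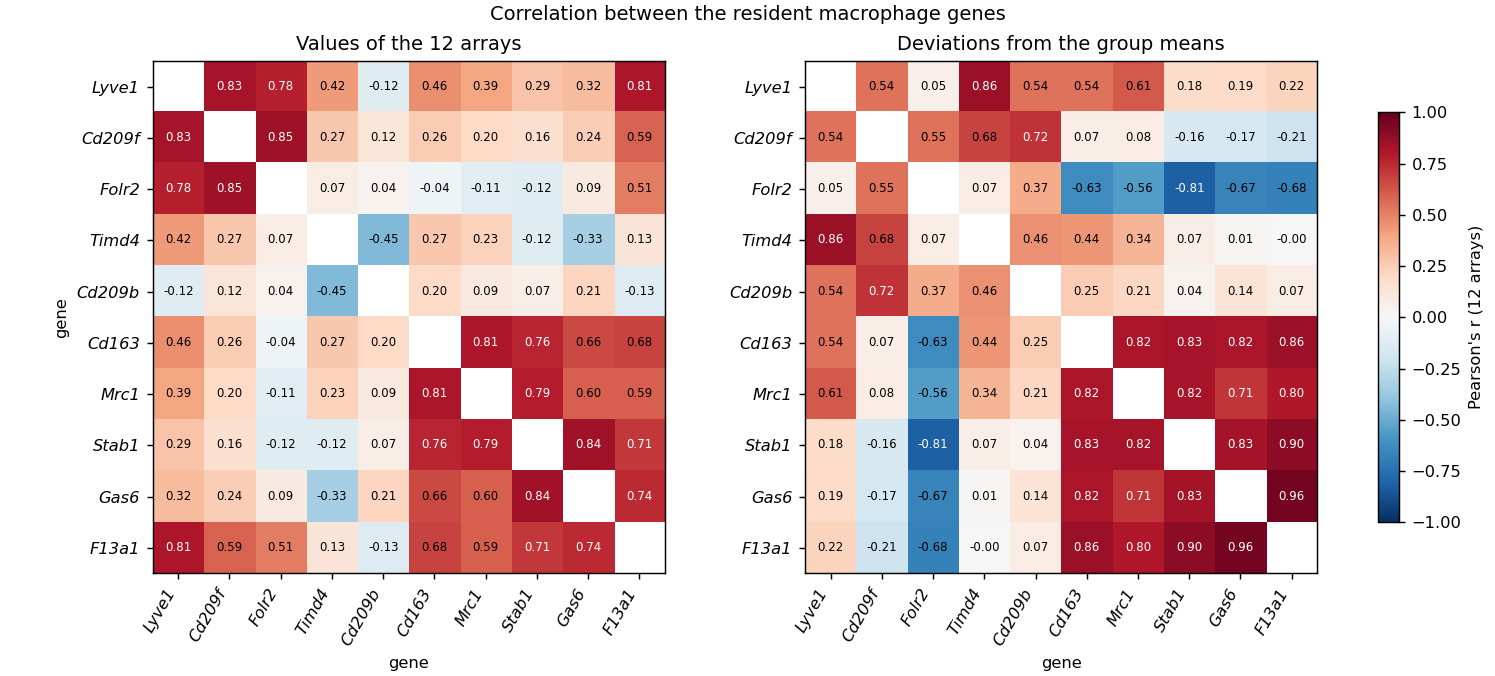
Pearson's r (colour and printed value) between the 10 genes over the 12 arrays, for the log2 values on the left and for deviations from the group means on the right. On the right, Cd163, Mrc1, Stab1, Gas6 and F13a1 form a block of 0.71 to 0.96 and Folr2 is at -0.81 to -0.56 with them.

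The 3 genes most like each member, by Pearson's r of the log2 values over the 12 arrays, were drawn from genes brighter than the median gene. For Lyve1 they were Pnp (0.94), Ifitm3 (0.93) and Adgrg1 (0.93), and for Cd209f Ccl24 (0.93), Ifitm3 (0.89) and Adgrg1 (0.85). For Folr2 they were Emp1 (0.93), Ifi27l2a (0.89) and Foxd3 (0.87), and for F13a1 Plk3 (0.93), Elf2 (0.91) and Egfr (0.91). Timd4 was most like Setd2 (0.86), Parp8 (0.86) and Eif4g3 (0.85). Mrc1 was most like Foxp1 (0.93), Med12 (0.92) and Hnrnpu (0.92), and Cd163 like Hnrnpu (0.94), Hrh1 (0.92) and Dnajc1 (0.91). For Stab1 they were Rnf168 (0.93), Tpcn1 (0.93) and Zfp330 (0.93), for Gas6 Timp2 (0.92), Trip6 (0.90) and Stxbp2 (0.90), and for Cd209b Taf13 (0.97), Sfmbt1 (0.91) and Mapk1ip1 (0.89). As the highest of 9508 r values each, they are selected and descriptive.

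Of 26 measured further genes of Lyve1-type macrophages, 0 passed for melanophages against macrophages by limma (0.12% of all genes), averaged over MHC-II class. At an unadjusted p under 0.05, 7 were lower (3.42% of all genes) and 1 higher (4.11%), and the median of the list was -0.13. The smallest adjusted p belonged to the chemokine Ccl24 (-0.78 ± 0.20, adjusted p = 0.292). Between the MHC-II gates averaged over cell kind the list had a median of -0.28, with an unadjusted p under 0.05 for 11 lower (4.62% of all genes) and 0 higher (4.6%). There 2 of the 26 passed as lower in MHC-II-positive cells and 0 as higher, against 26 lower and 126 higher of all 19938 genes. The 2 were Ednrb, the endothelin B receptor (-1.22 ± 0.19, adjusted p = 0.0176), and Colec12, a scavenger receptor of the collectin family (-1.36 ± 0.22, adjusted p = 0.0192). Each passed in 19 of 23 alternatives, with a limma adjusted p of at most 0.0551 for Ednrb and 0.05455 for Colec12. Ednrb averaged 6.54 ± 0.18 in MHC-II-positive melanophages, 8.19 ± 0.07 in MHC-II-negative melanophages, 7.46 ± 0.38 in MHC-II-positive macrophages and 8.24 ± 0.62 in MHC-II-negative macrophages (SD, n = 3 each). It passed within melanophages too (-1.65 ± 0.27, adjusted p = 0.0489), and no other gene of that list passed in a single gate or cell kind, where the smallest adjusted p belonged to Ltc4s (0.528), Ccl24 (0.567) and, within macrophages, Hpgd (0.102).

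Genes that act with the members passed in 0 of 22 cases in each of the 7 comparisons by limma (0% to 0.762% of all genes). This list holds hyaluronan synthases and hydrolases, TAM receptors and their other ligands, haptoglobin and haem oxygenase, folate carriers and transglutaminases. Between the cell kinds the smallest adjusted p belonged to Axl, a receptor for GAS6 (-0.54 ± 0.13, adjusted p = 0.231). Of the 22, 1 higher and 4 lower had an unadjusted p under 0.05 (4.11% and 3.42% of all genes). The group means of Axl were 3.25, 3.08, 4.10 and 3.32 in MHC-II-positive melanophages, MHC-II-negative melanophages, MHC-II-positive macrophages and MHC-II-negative macrophages, of which only the third lies clear of the array medians. For MHC-II the smallest adjusted p belonged to Cd44, another hyaluronan receptor (0.51 ± 0.13, adjusted p = 0.148). There 3 higher and 2 lower had an unadjusted p under 0.05 (4.6% and 4.62% of all genes).

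Further lists held genes of alternative activation and other scavenger receptors. Of 12 genes of alternatively activated macrophages, 1 was lower in melanophages averaged over MHC-II class (0.0652% of all genes), namely Retnla (-2.49 ± 0.20, adjusted p = 0.00221). Of the 12, 11 lay below 0 (45.2% of all genes), with a median of -0.52 for the list. Between the MHC-II gates averaged over cell kind, 126 of 19938 genes passed as higher in MHC-II-positive cells and 26 as lower. Of these 12 genes 5 passed, all with more in MHC-II-positive cells, led by the chemokine Ccl17 (5.26 ± 0.40, adjusted p = 0.000111), with a median of 0.89. Those 5 include Mgl2, which passed in 8 of 23 alternatives. Of 13 other scavenger receptors 0 passed between the cell kinds by limma (0.12% of all genes), where Cd36 had the smallest adjusted p (0.29 ± 0.05, adjusted p = 0.119). An unadjusted p under 0.05 was found for 2 higher (4.11% of all genes) and 0 lower (3.42%). For MHC-II, 2 of the 13 were higher in MHC-II-positive cells (126 of 19938 genes), Olr1 (2.63 ± 0.24, adjusted p = 0.000372) and Cxcl16 (0.56 ± 0.10, adjusted p = 0.0326), the second of which passed in 11 of 23 alternatives.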

How the data were processed

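The deposited table holds log2 expression values, which the authors computed by RMA with oligo according to the submitters' processing notes. Its versions and settings and the genome build were not given in the sources used here. It has 35556 probe sets on 12 arrays. Of these, 21789 carry 1 gene symbol in the platform annotation, 1621 several and 12146 none here. Each gene was represented by its brightest probe set on average (19938 genes). Group means were estimated from all 12 arrays together in limma 3.58.1 under R 4.3.3, using lmFit and eBayes, for 7 comparisons. Tests were two-sided, with Benjamini-Hochberg adjustment over all genes and a threshold of 0.05. Differences are in log2 units, with standard errors of the fit. Precision is limited by the 3 arrays in each group.

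The members and the gene lists were chosen with earlier results of these data known. The text names every member, up to 4 passing genes per list and comparison or else the gene with the smallest adjusted p, and the 3 genes most like each member; for single gates and cell kinds, and for the interaction, only some of the list genes are printed. Of the lists, 3 of 29 further Lyve1-type genes, 1 of 23 partner genes and 1 of 13 alternative activation genes were not matched. On simulated data with 100 genes changed by 1 and 100 by 2 (log2, drawn from genes brighter than the median gene) among 19938, the fit called 81% and 100% for melanophages against macrophages, 73% and 98% for MHC-II, and 39% and 84% for the interaction. Unchanged genes called numbered 16, 10 and 6 in that order. The simulated noise was independent between genes, and more genes were changed than passed in the data (24, 152 and 0). These shares therefore do not give the chance that a changed member would pass here.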

Additional observations from a re-analysis of the deposited data

How the results depend on the processing

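Alternatives were 2 filters on dim genes, 3 normalizations, averaging a gene's probe sets, every probe set of the table, the trend and robust options, array weights, each array left out in turn, both far macrophage arrays left out, for pairs of groups only their own arrays and, chosen after seeing the data, a replicate block for the 3 runs of consecutive title codes. Over all genes, dim ones included, deviations from the group means correlated above 0.1 in 5 of 18 pairs of the same run. These r values lay between -0.25 and 0.27 (median -0.03, against a median of 0.06 between runs). Of 12 arrays, 0 correlated best with their own run in every other group. Whether the runs pair the arrays in brighter genes alone was not tested. With the replicate block the differences are the same by construction. Lyve1 was the 1 member passing in the averaged cell kind difference (adjusted p = 5.01e-05), within the MHC-II-negative gate (0.000238), within the MHC-II-positive gate (0.00435), in the averaged MHC-II difference (0.000393) and within macrophages (0.00122). Within melanophages 2 passed, Lyve1 (0.0325) and Timd4 (0.0482), and for the interaction 0. All-gene calls under the block numbered 18, 6, 2, 145, 69, 39 and 0 in that order, against 24, 1, 3, 152, 68, 42 and 0 without it, and the alternative activation genes higher in MHC-II-positive cells numbered 3, against 5. In the averaged difference of melanophages from macrophages, the count of members passing was 1, and over the fits without 1 array it lay between 0 and 1. It was 0 with every probe set (1 of 35556 probe sets passing) and 2, Lyve1 and F13a1, without both far arrays (117 of 19938 genes). Within the MHC-II-negative gate it was 0 (1 gene), but 2 with the filter at a value of 5 on at least 3 arrays (18 of 4373 genes), 1 with trend and robust options (11 genes), and 0 to 2 without 1 array. Averaged over cell kind, the MHC-II count was 0 (152 genes), but 1, Lyve1, with the median filter (193 of 9969 genes), the filter at 5 (167 of 4373), trend and robust options (165) and array weights (215), and 0 to 1 without 1 array. Within melanophages it was 0 (42 genes), but 1, Timd4, with the filter at 5 (60 of 4373), trend and robust options (51) and array weights (63), and 0 to 1 without 1 array. Within macrophages it was 0 (68 genes), but 1, Lyve1, with the filter at 5 (79 of 4373). The filters test fewer genes, and the causes of the other changes were not tested. The sign of 5 results turned. Without 1 array, Mrc1 lay between -0.10 and 0.0075 for the cell kinds and between -0.094 and 0.016 for MHC-II, Stab1 between -0.39 and 0.0085 for the cell kinds, and Timd4 between -0.56 and 0.65 for the cell kinds in the MHC-II-positive gate and between -0.38 and 0.20 for MHC-II within macrophages. Timd4 in the MHC-II-positive gate was 0.21 with array weights and 0.14 without both far arrays. Of 1404 values of 60 results under alternatives, 1392 kept their sign.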

Other observations

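Replicate 1, which in every group is the array of the run with the lowest title codes, had the lowest value of Lyve1 and of Timd4 in 4 of 4 groups. It was also the lowest in 3 of 4 groups for Mrc1, Cd209f and Cd209b, and in 0 of 4 for Folr2. The labels do not say what a run of codes stands for.

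Vsig4, a complement receptor of resident macrophages, had its highest group mean in MHC-II-negative macrophages: it averaged 2.83 ± 0.09 in MHC-II-positive melanophages, 3.25 ± 0.48 in MHC-II-negative melanophages, 2.93 ± 0.19 in MHC-II-positive macrophages and 4.74 ± 1.01 in MHC-II-negative macrophages (SD, n = 3 each). Its interaction was 1.38 ± 0.58 (limma adjusted p = 0.9996). Igf1, a growth factor of resident macrophages, stayed between group means of 10.01 and 10.11.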
